A study of Mus musculus with 12 samples.

Results

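Fetal liver cells labelled as haematopoietic stem cells (HSC) were divided by whether the receptor gene Flt3 was detected in them, so the members were chosen by their measured Flt3 count. A cell counted as one with Flt3 if at least 1 unique molecular identifier (UMI, the tag that marks 1 captured RNA molecule) of Flt3 was deposited for its well, and as one without Flt3 if there was none. Of 454 fetal liver cells that passed the filters, 212 had Flt3 and 242 did not, out of 1020 kept cells in the series. After cells of similar total UMIs were paired, none of the tested genes, which leave out Flt3, passed the test between the sides. The 95% interval of the difference lay within a 2-fold change either way for 24 of 41 stem cell genes, Procr and Hlf among them, and for 3551 of 8894 genes in all.

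Flt3 encodes a receptor tyrosine kinase of the class that also holds Kit and Csf1r. Its ligand, Flt3l, sets off signalling through the PI3-kinase, MAP kinase and Stat5 routes, and the pathway is known for the growth of multipotent and lymphoid progenitors and of dendritic cells. In adult mouse bone marrow, surface Flt3 is a standard mark for progenitors that have left the long-term stem cell state, which are gated away from stem cells by it. RNA is not surface protein, and the series measured no protein, so the cells are described here by their Flt3 UMIs alone.

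The series profiled single cells labelled HSC from the aorta-gonad-mesonephros region (AGM), the fetal liver and the bone marrow of a mouse line built for lineage tracing, 1 cell per well in plates of 96 wells. Both sides of the comparison came from the same 5 fetal liver plates and so shared line, tissue, sort and handling. Neither a genotype within the line, nor the age of the animals, a treatment or the surface markers of the sort is given in the labels. Nuclei were taken off on beads first, and the polyadenylated RNA left in the cytoplasm was sequenced by scSTRT-seq with small changes, a method that tags single-cell cDNA with UMIs. Plates 1 to 3 carry the origin code LL653E1 and plates 4 and 5 the code LL653E6. It is not stated if such a code stands for 1 embryo or several, so p-values measure the spread between plates, which may in part be technical.

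The 480 fetal liver wells gave 454 kept cells with 3384993 to 8140383 UMIs in all per plate. The same 96 barcodes recurred in all 12 plates, since they name positions on a plate, and no cell was matched across plates by them. The 26 wells left out had a median of 1575 UMIs and held no Flt3 UMI, which says little at that depth. The stem cell label was checked on the matched cells described below. Procr, the surface receptor of HSC, was detected in 88.4% of cells with Flt3 and 94.8% without. Hlf, a transcription factor of HSC, was detected in 82.7% on both sides. Over all 454 cells Kit was found in 313, Cd34 in 423, Ly6a in 382, Mecom in 353, Ptprc in 257 and Slamf1 in only 96.

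Flt3 lies on the minus strand of chromosome 5, from 147330741 to 147400489 (GRCm38, the mm10 build), and is protein coding. Its start overlaps the antisense gene Gm26597, from 147399554 to 147401917 on the plus strand. Gm26597 had 166 UMIs, which fell in 10 cells with Flt3 and 10 without. Whether the authors counted by strand is not given, and reads in the shared stretch cannot be assigned.

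Flt3 itself, which defined the sides and is therefore described without a test, was spread unevenly over the cells. The 454 cells held 1414 Flt3 UMIs, or 50.4 CPM (the UMIs of a gene scaled to a common library total). Of the 212 cells with Flt3, 64 had exactly 1 UMI, 55 had 2 to 4 and 93 had 5 or more, up to 41. The cells with 5 or more held 85.2% of all Flt3 UMIs. The rule's border thus ran between 242 cells with none and 64 with 1.

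The share of cells with Flt3 was 63.2%, 43.8%, 28.0%, 44.6% and 51.7% on plates 1 to 5, or 46.2% ± 12.8 (SD, n = 5 plates). The exact 95% binomial intervals of the highest and the lowest plate, 52.6% to 72.8% and 18.7% to 39.1%, did not overlap, and both plates carry the code LL653E1. These intervals cover counting error only. The level of Flt3 over all cells varied less, at 62.8, 41.8, 41.7, 54.5 and 41.9 CPM on plates 1 to 5. Plate 3 had the fewest positive cells but nearly the same CPM as plates 2 and 5, and its 23 cells with Flt3 had a median of 6 Flt3 UMIs, against 2 on plate 5.

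Over the pooled cells detection rose with depth. With each plate's cells split into 3 equal classes by depth, Flt3 was detected in 33.6% of the shallowest, 47.7% of the middle and 58.8% of the deepest class. Single plates ranged from 25.8% to 46.9%, from 18.5% to 64.5% and from 35.7% to 78.1%, in that order. The plate at 18.5% in the middle class was thus lower there than in its shallowest class. Plates did not rank by depth. Plate 5, with the lowest median (35267 UMIs), had 51.7%, and plate 4, with the highest (75735 UMIs), had 44.6%. When every cell was thinned to 10000 UMIs, with 13 shallower cells left out, the share was 29.0%, 22.3%, 19.5%, 27.2% and 22.4% on plates 1 to 5, or 24.1% ± 3.91 (SD, n = 5 plates). A cell without a Flt3 UMI is thus a cell in which none was captured, and some of the 242 may hold Flt3 RNA. With a threshold of at least 2 UMIs the share was 32.2% ± 10.2 (SD, n = 5 plates).

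**Figure D1:**
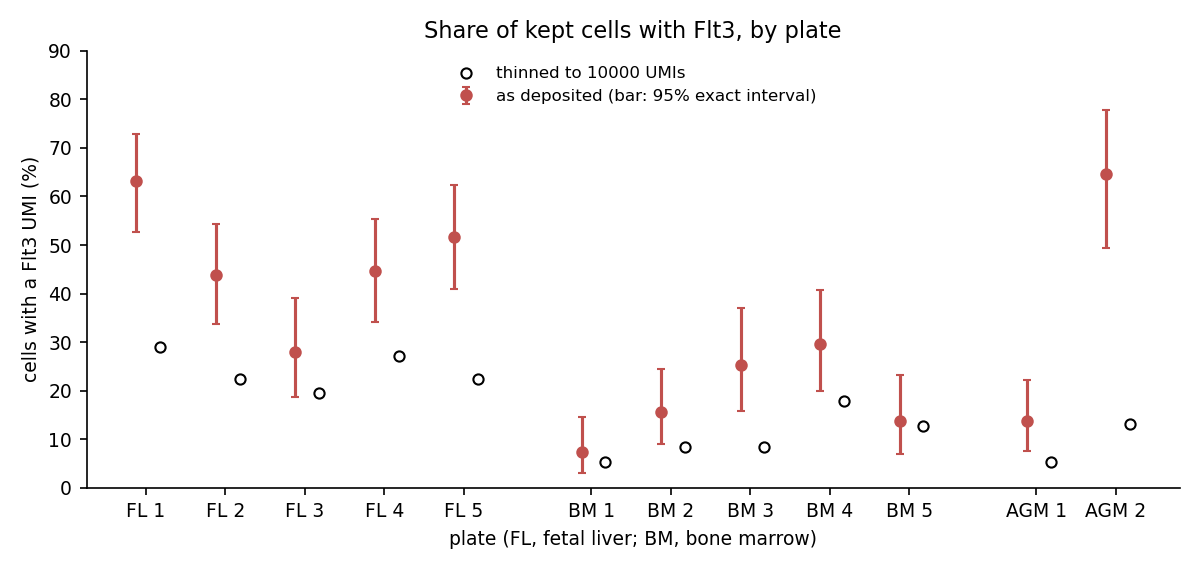
Share of kept cells with at least 1 Flt3 UMI on each plate of fetal liver (FL), bone marrow (BM) and AGM, as deposited (filled points, bars are exact 95% binomial intervals) and after thinning each cell to 10000 UMIs (open points). The fetal liver plates range from 28.0% to 63.2% as deposited and from 19.5% to 29.0% at equal depth.

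Elsewhere in the series Flt3 was detected in 75 of 423 bone marrow cells (17.7%, plates 7.37% to 29.6%) and in 44 of 143 AGM cells (30.8%, with 13.7% and 64.6% on its 2 plates of 1 code). At 10000 UMIs per cell the shares were 10.3% in bone marrow and 7.80% in AGM. The 5 fetal liver plates, at 19.5% to 29.0%, all lay above the highest bone marrow plate at equal depth, 17.9%, and above both AGM plates, at 5.26% and 13.0%. The lowest fetal liver plate (15 of 77 cells) and the highest bone marrow plate (14 of 78) were close. Cells were thinned by 1 random draw, and no interval was taken for these shares. Bone marrow plates 4 and 5 name their tissue in the title alone, and it is not known if they were sorted like plates 1 to 3.

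Cells with Flt3 were deeper than cells without on each plate. The median total was 67728 UMIs with Flt3 against 51796 without on plate 1, 53746 against 45484 on plate 2, 58916 against 48646 on plate 3, 91173 against 69993 on plate 4 and 40110 against 27343 on plate 5. The ratio ran from 1.18 to 1.47 and was above 1 on 5 of 5 plates. The exact two-sided sign-flip test over plates gave p = 0.062, the smallest value that 5 pairs allow. Detected genes were also more numerous, with a median of 4514 against 3657 over all cells and higher on 5 of 5 plates (exact p = 0.062). In these cells depth and the detection of Flt3 cannot be told apart. The share of mitochondrial UMIs, with medians of 0.132% and 0.148%, was higher on 2 of 5 plates (exact p = 0.688).

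**Figure D2:**
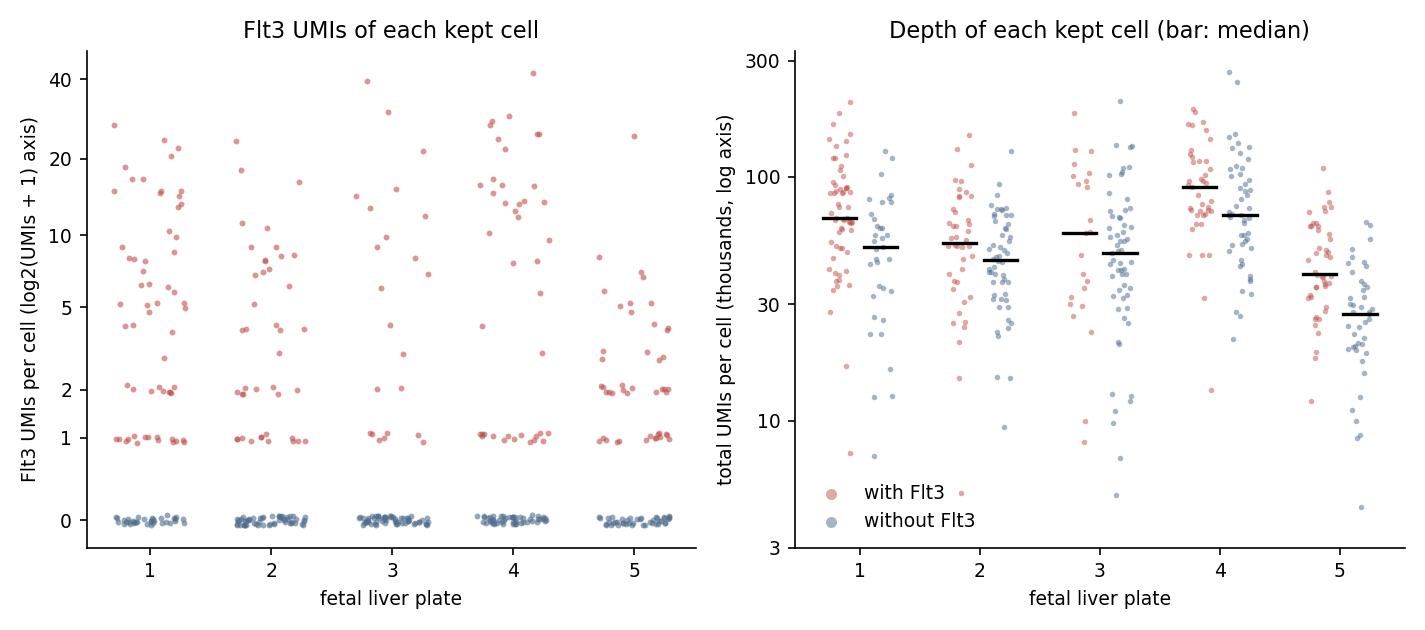
Left, Flt3 UMIs of each of the 454 kept fetal liver cells by plate on a log2(UMIs + 1) axis, with cells without Flt3 in blue and cells with Flt3 in red. Right, total UMIs of the same cells on a log axis with the median of each side as a bar, which is higher with Flt3 on all 5 plates.

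To compare the sides at like depth, each cell with Flt3 was paired on its own plate with a cell without Flt3 of similar total UMIs. This gave 32, 41, 23, 40 and 37 pairs on plates 1 to 5, or 173 in all, and the counts of each side were summed per plate. The medians came to 56743 UMIs with Flt3 and 54485 without. Depth was evened out on plates 1 to 4, with ratios of medians from 0.955 to 1.11, but on plate 5 cells with Flt3 stayed 1.31-fold deeper. Cells with Flt3 had more detected genes on 4 of 5 plates, by a ratio of medians from 0.875 on plate 3 to 1.29 on plate 5 (exact p = 0.562).

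In the matched cells 0 of 8894 tested genes passed in either direction (0% higher and 0% lower) in edgeR's quasi-likelihood test with plates as blocks and a Benjamini-Hochberg adjusted p under 0.05. The smallest adjusted p was 0.997. DESeq2 on the same sums called 0 genes higher and 1, Nexn, lower. Without adjustment, 140 genes (1.57%) were higher and 174 (1.96%) lower at p under 0.05 in edgeR. All 5 plates had the higher level with Flt3 for 268 genes (3.01%) and the lower level for 265 (2.98%). The central part of the log2 differences (with minus without Flt3), from the lower to the upper quartile, ran from -0.23 to 0.28. A missed test does not show that levels were equal, so intervals are given. For 3551 of the 8894 genes (39.9%) the 95% interval lay within a 2-fold difference either way.

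Hacd4 and Ifitm1 were 2 of the genes with the smallest p among those lower on every plate. Hacd4, an enzyme of very long chain fatty acid synthesis on chromosome 4 (88396144 to 88438928, minus strand), was at 450, 288, 316, 410 and 493 CPM with Flt3 on plates 1 to 5 and at 532, 473, 519, 517 and 586 CPM without. Each plate was lower with Flt3, and the ranges of the sides overlapped. The log2 difference was -0.45 ± 0.10 (SE, n = 5 plates), with a 95% interval from -0.67 to -0.23, and did not pass. Ifitm1, an interferon-induced membrane protein that HSC express, lies on chromosome 7 (140967221 to 140969825, plus strand). It was at 2387, 2484, 1791, 1954 and 3603 CPM with Flt3 and at 2538, 2791, 2366, 2132 and 4187 CPM without. The level was lower with Flt3 on each plate, by a small amount, at -0.20 ± 0.05 (SE, n = 5 plates) on the log2 scale, and did not pass.

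S100a16, a calcium-binding protein gene on chromosome 3, averaged 9.08 CPM with Flt3 and 41.0 CPM without, with a log2 difference of -2.65 ± 0.67 (SE, n = 5 plates). It was lower on 5 of 5 plates, did not pass, and rested on few cells: 19.7% of cells with Flt3 and 24.9% without had a UMI, and 1 cell held 21.6% of its UMIs on the side with Flt3. The other genes of this group were Ccne2, encoding cyclin E2, at -1.90 ± 0.50, Mllt10, a partner of the histone methyltransferase Dot1l, at -1.05 ± 0.29, and Rfc3, a clamp loader subunit of DNA replication, at -0.74 ± 0.21. None passed.

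The genes with the smallest p among those higher on every plate came from unlike processes, and none passed. Chek1, the checkpoint kinase of DNA replication, averaged 57.0 CPM with Flt3 and 19.6 CPM without, with a log2 difference of 1.71 ± 0.46 (SE, n = 5 plates). Gem, a small GTP-binding protein, was at 141, 124, 171, 153 and 168 CPM with Flt3 on plates 1 to 5 and at 28.1, 85.0, 93.3, 108 and 125 CPM without. Its sides nearly separated, with the lowest plate with Flt3 just under the highest without, and the log2 difference was 0.90 ± 0.25. At equal depth per cell it was detected in 58.2% of cells with Flt3 and 37.6% without. Fto, an RNA demethylase, differed by 1.27 ± 0.38 and Copb1, a coat protein of Golgi vesicles, by 1.03 ± 0.32. Dhx8, a splicing helicase, differed by 2.03 ± 0.63 and Fbxl6, an F-box protein, by 1.14 ± 0.37. Dhx8 was detected in 29.5% of cells with Flt3 and 20.8% without, and 1 cell held 37.8% of its UMIs on the side without. In cells without Mki67, Copb1 differed by only 0.10 ± 0.51, while Fto differed by 1.16, Dhx8 by 1.99 and Fbxl6 by 0.87.

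**Figure D3:**
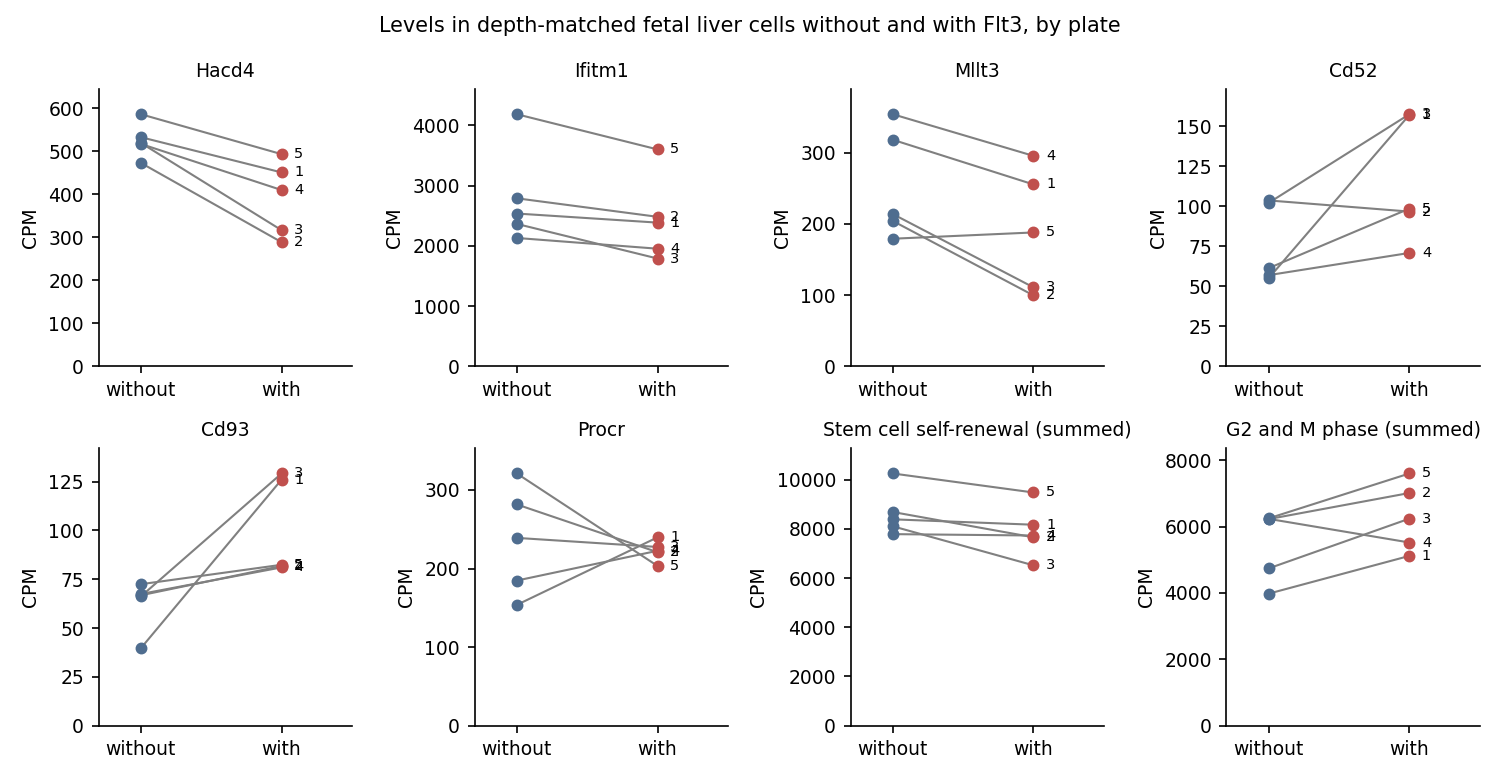
Levels in CPM of 6 genes and of 2 gene lists (summed over members) in matched fetal liver cells without and with Flt3, each line being 1 plate with its number at the right. Hacd4, Ifitm1 and the summed stem cell list are lower with Flt3 on 5 of 5 plates, Cd93 is higher on 5 of 5, and Procr goes both ways.

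Genes of stem cell self-renewal differed little at the median. Of 41 tested members 15 had a positive log2 difference, against 4491 of 8894 over all tested genes. None passed. At an unadjusted p under 0.05, 0 were higher and 2 lower, against 1.57% and 1.96% of all genes. On all 5 plates 2 (4.88%) were lower, against 2.98% of all genes. The median log2 difference of the list was -0.05, against 0.00 over all tested genes. It was -0.15 with at least 2 Flt3 UMIs, -0.17 with at least 5 and -0.21 without matching. On the plates of LL653E1 it was -0.12 and on those of LL653E6 0.04. The summed level of the list was 8166, 7655, 6516, 7728 and 9476 CPM with Flt3 on plates 1 to 5 and 8385, 8683, 8103, 7784 and 10249 CPM without. It was lower with Flt3 on each plate, by little on plates 1 and 4. Ifitm1 and Ifitm3, its close relative, had the most UMIs of the list and made up much of that sum. Ifitm3 differed by -0.15 ± 0.07 (SE, n = 5 plates).

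Among the regulators of this list, Mllt3, a chromatin reader known to maintain human HSC, stood lowest by p. It was at 255, 99.6, 111, 295 and 188 CPM with Flt3 on plates 1 to 5 and at 318, 204, 214, 354 and 179 CPM without, so plate 5 went the other way. Its log2 difference was -0.50 ± 0.17 and did not pass. Hlf differed by -0.05 with a 95% interval from -0.44 to 0.33, and Mecom, a transcription factor that HSC depend on, by -0.19 with an interval from -0.57 to 0.19.

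None of the surface genes that define HSC gates passed. Procr was at 240, 221, 227, 223 and 203 CPM with Flt3 and at 154, 282, 239, 185 and 321 CPM without. Its level was alike on all plates with Flt3 and scattered widely without, and the log2 difference was -0.03 with an interval from -0.39 to 0.33. Ly6a, encoding Sca-1, differed by -0.01 (-0.61 to 0.58) and Kit by 0.05 (-0.47 to 0.56). Slamf1, encoding CD150, differed by 0.10 with an interval from -1.65 to 1.85, too wide to place it.

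Surface genes of multipotent progenitors gave 0 calls. Of 12 tested members 8 had a positive log2 difference, beside 4491 of 8894 over all genes. The median was 0.08, or 0.03 with depth as a covariate and 0.02 in cells without Mki67. In the matched cells 1 (8.33%) was higher at an unadjusted p under 0.05, against 1.57% of all genes. The same gene was the 1 higher on all 5 plates, against 3.01% of all genes. That gene was Cd93, a C-type lectin receptor of early progenitors and endothelium. It was at 126, 81.8, 129, 81.1 and 82.4 CPM with Flt3 on plates 1 to 5 and at 39.7, 66.8, 66.2, 67.4 and 72.5 CPM without. The sides did not overlap, and the log2 difference was 0.67 ± 0.26 (SE, n = 5 plates).

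None of the markers by which multipotent progenitors are usually gated passed. Cd34 differed by 0.16 with an interval from -0.19 to 0.51, Cd27, a receptor of the TNF receptor family, by 0.14 (-0.18 to 0.47) and Cd48 by 0.44 with an interval from -0.55 to 1.42, too wide to place it. Cd37, a tetraspanin of lymphoid cells, differed by 0.49 ± 0.23 and Emb, encoding embigin, by 0.27 ± 0.16, both higher on 4 of 5 plates.

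Lymphoid genes gave no common direction. Of 20 tested members 11 were positive, against 4491 of 8894 over all tested genes, and the median was 0.01. At an unadjusted p under 0.05, 2 (10%) were higher and 0 lower, against 1.57% and 1.96% of all genes. None passed. Cd52, a small surface glycoprotein of lymphocytes, was at 157, 96.7, 158, 70.9 and 98.6 CPM with Flt3 and at 55.1, 104, 102, 57.0 and 61.4 CPM without. It was higher on 4 of 5 plates by 0.60 ± 0.24. Ighm, the immunoglobulin mu heavy chain, averaged 22.3 CPM with Flt3 and 9.65 CPM without (1.68 ± 0.73) and was detected in 23.1% and 18.5% of cells. Cd79b, the signalling chain of the B cell receptor, was lower on 5 of 5 plates by -0.32 ± 0.17.

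Genes that mark the first committed lymphoid step were almost without UMIs. Over all 454 cells Dntt had 2 UMIs and Il7r had 2, and neither could be tested. Satb1, a chromatin organiser of lymphoid progenitors, differed by 0.79 (-0.50 to 2.08), Ikzf1, encoding Ikaros, by 0.15 (-0.50 to 0.80), and Mzb1, a chaperone of B lineage and plasmacytoid cells, by 0.38 ± 0.29.

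Myeloid, megakaryocytic and erythroid genes also gave 0 calls. The median of 19 tested myeloid members was -0.09, with 0 at an unadjusted p under 0.05 in either direction. Mpo, the peroxidase of granules, differed by -0.79 (-1.73 to 0.15) and Spi1, encoding the factor PU.1, by -0.10 (-0.37 to 0.16). Cebpa had 0 UMIs and Csf1r 28 in all fetal liver cells. The 13 tested megakaryocyte members had a median of 0.11, which turned to -0.11 with a narrower matching limit, -0.03 with depth as a covariate and -0.13 without plate 5. The 12 tested erythroid members had a median of -0.09, which turned to 0.05 without plate 1. Lat, an adaptor of platelet and T cell signalling, was higher on 5 of 5 plates by 0.94 ± 0.37. Car2, a carbonic anhydrase, was at 1041, 843, 1066, 871 and 1386 CPM with Flt3 and at 677, 934, 754, 725 and 1206 CPM without (0.29 ± 0.09, higher on 4 of 5 plates). Pf4, a platelet chemokine, differed by -0.48 (-1.43 to 0.47), and Gata1 had 28 UMIs in all.

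The genes downstream of the receptor were centred near 0. Of 49 tested members of Flt3 signalling 24 were positive, against 4491 of 8894 over all tested genes. The median was -0.02, and 0 members were at an unadjusted p under 0.05 in either direction. Stat5a differed by -0.05, Ptpn11, the phosphatase Shp2, by -0.12, Pim1, a Stat5 target kinase, by -0.12, and Myc by -0.52. Mtor stood highest by p at 1.65 ± 0.78 but averaged 12.8 and 4.48 CPM, with 29.3% of its UMIs on the side with Flt3 from 1 cell. The ligand gene Flt3l was itself detected in 105 cells and differed by -0.04 ± 0.49.

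Factors linked to Flt3 transcription were also centred near 0, with a median of 0.00 over 21 tested members and 0 at an unadjusted p under 0.05. Hoxa9 differed by 0.18, Meis1 by -0.12, Myb by -0.13 and Mef2c by 0.17. For Meis1, Hoxa9, Spi1, Myb and Mef2c, factors known to act at the Flt3 gene, the differences thus stayed under 0.2 on the log2 scale in size. Runx1 differed by 0.63 ± 0.36.

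The fetal stem cell programme showed a median of -0.16 over 14 tested members. Igf2, an imprinted growth factor, was at 59.0, 19.9, 1.26, 87.6 and 58.5 CPM with Flt3 and at 86.0, 83.6, 47.3, 100 and 64.4 CPM without. It was lower on 5 of 5 plates by -1.20 ± 0.47 and did not pass. H19, the imprinted transcript next to Igf2, differed by -0.27 ± 0.16. Hmga1, a chromatin protein of fetal cells, was higher on 5 of 5 plates by 0.21 ± 0.11, and Igf2bp3 differed by 0.02 (-0.62 to 0.67).

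**Figure D4:**
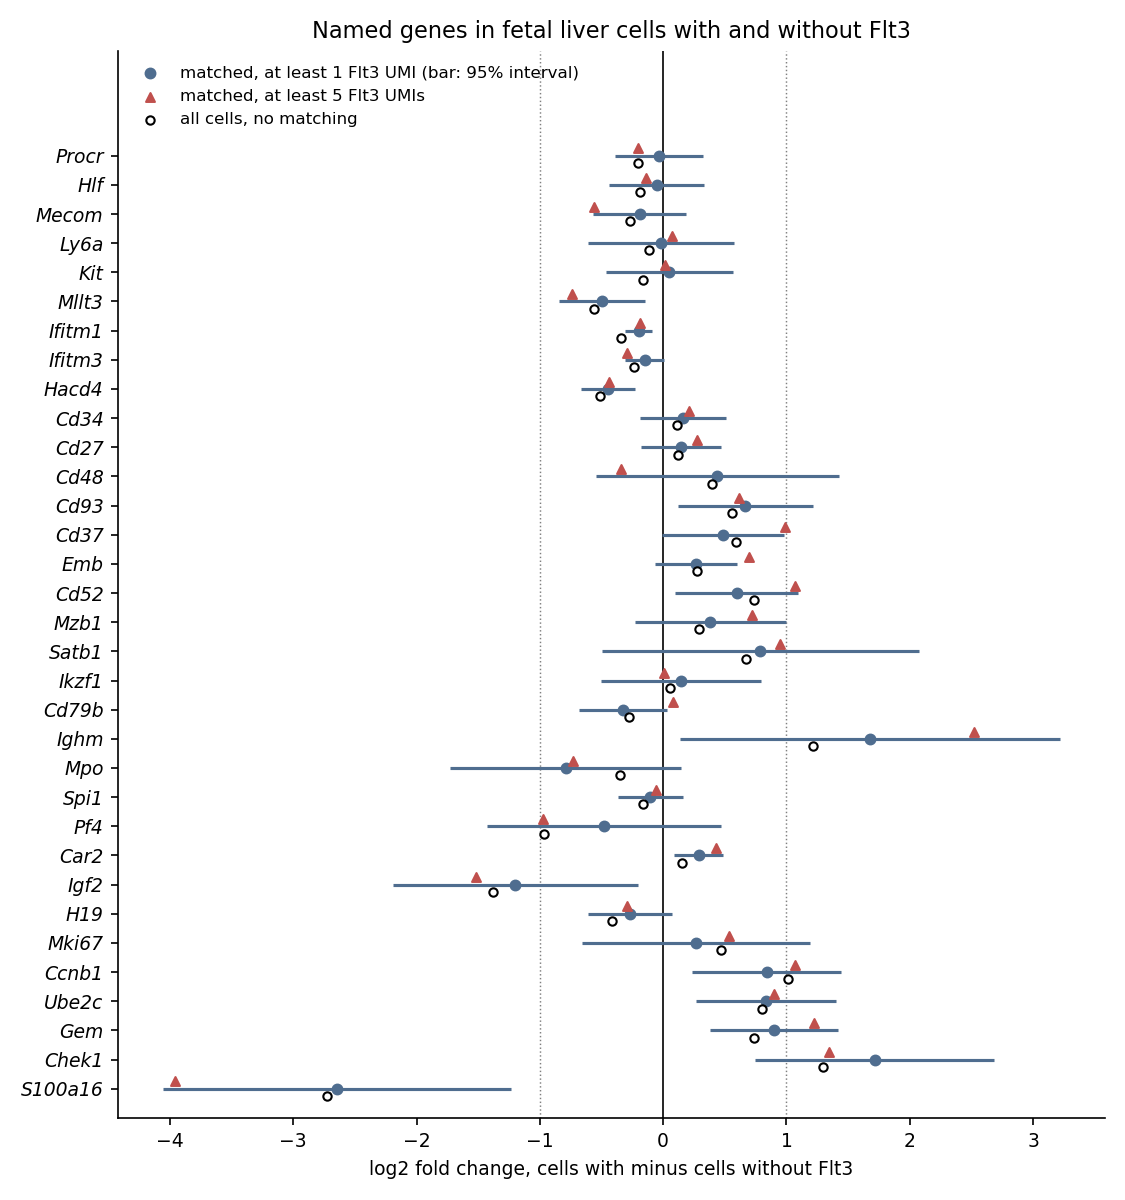
Log2 difference (cells with minus cells without Flt3) of 33 named genes in matched fetal liver cells with its 95% interval (blue), with at least 5 Flt3 UMIs as the threshold (red triangles) and over all cells without matching (open circles). Dotted lines mark a 2-fold difference. The intervals of Procr, Hlf, Cd34 and Cd27 lie inside it, and those of the sparse genes Ighm and S100a16 reach beyond it.

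Genes of the G2 and M phases of the cell cycle, which carry a cell through mitosis, were higher with Flt3 more often than the background of all genes. Of 57 tested members 46 had a positive log2 difference, against 4491 of 8894 over all tested genes, and the median was 0.50. At an unadjusted p under 0.05, 12 (21.1%) were higher against 1.57% of all genes, and 10 (17.5%) were higher on all 5 plates against 3.01%. Still 0 of the 57 passed after adjustment. Ccnb1, encoding cyclin B1, was at 77.2, 129, 123, 110 and 89.3 CPM with Flt3 on plates 1 to 5 and at 33.1, 106, 26.5, 99.2 and 61.4 CPM without. It was higher on 5 of 5 plates by 0.84 ± 0.29, with ranges that overlapped.

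Ube2c, a ubiquitin enzyme of the mitotic exit, was at 271, 253, 303, 211 and 339 CPM with Flt3 and at 97.0, 258, 59.3, 213 and 223 CPM without. It was higher on plates 1, 3 and 5 and level on plates 2 and 4 (0.83 ± 0.27). Birc5, encoding survivin, differed by 0.43 ± 0.15. The summed level of the list was 5119, 7015, 6242, 5522 and 7604 CPM with Flt3 and 3980, 6228, 4742, 6235 and 6250 CPM without, higher on plates 1, 2, 3 and 5 and lower on plate 4. Cells with a UMI of Mki67, the proliferation marker, made up 38.2% of matched cells with Flt3 (66 of 173, 95% interval 30.9% to 45.8%). Without Flt3 they made up 32.9% (57 of 173, with an interval that reached up to 40.5%). The intervals overlapped and cover counting error only. At 10000 UMIs per cell these shares were 15.3% and 12.4%. As deposited, the share was higher with Flt3 on plate 2 alone (23 against 9 of 41 cells). It was equal on plates 1 (9 of 32 on each side) and 5 (16 of 37). It was lower with Flt3 on plates 3 (5 against 9 of 23) and 4 (13 against 14 of 40).

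The excess of the G2 and M list depended on how depth and cells were handled. The median of the G2 and M list was 0.38 with a narrower matching limit, 0.21 with cells thinned to equal depth, and 0.01 when all cells were used with the mean depth of each sum as a covariate. It was 0.67 on the plates of LL653E1, 0.13 on those of LL653E6 and 0.28 without plate 3, the lowest value with 1 plate left out. Among cells with no Mki67 UMI on either side (103 pairs) it was -0.26. Mki67 is itself a member of the list, so that setting chose cells by 1 of the genes it measures. With at least 5 Flt3 UMIs as the threshold it was 0.74. Plate 5 kept a depth gap of 0.31 on the log2 scale after matching, and the part of depth in the pattern was not tested beyond these values. In the matched cells S phase genes did not share the direction: of 53 tested members 0 were higher and 3 lower at an unadjusted p under 0.05, against 1.57% and 1.96% of all genes. Their median was -0.13, or -0.03 with depth as a covariate and 0.09 in cells without Mki67. Gmnn, the licensing inhibitor geminin, differed by -0.40 ± 0.18.

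**Figure D5:**
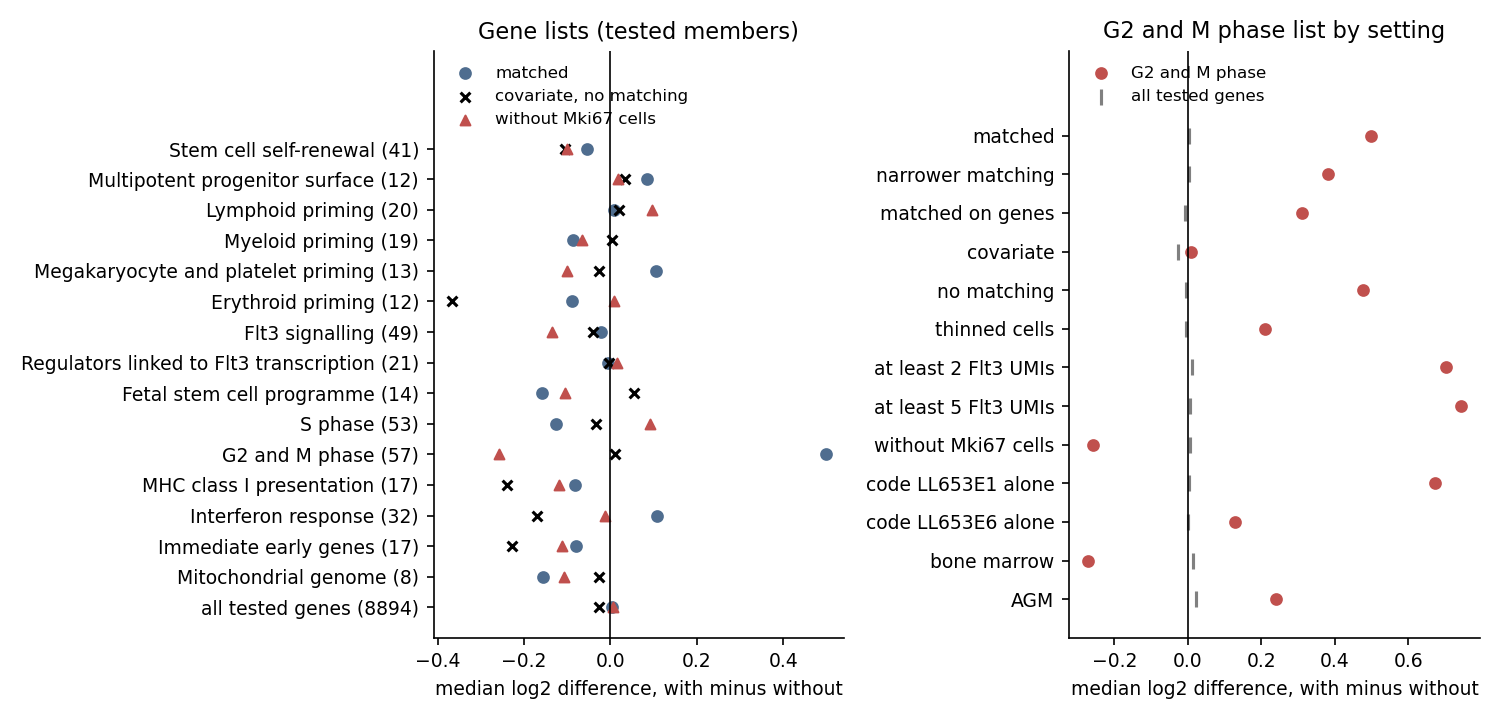
Left, median log2 difference in matched cells, with depth as a covariate in place of matching, and in cells without Mki67. It is drawn for each state or pathway list with at least 8 tested members (number in brackets) and for all tested genes. Right, the G2 and M phase median under each setting beside that of all tested genes. The list stands at 0.50 in matched cells, 0.01 with the covariate and -0.26 without Mki67 cells, a setting that chose cells by a member of the list.

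The remaining lists gave 0 calls. MHC class I presentation had a median of -0.08 over 17 tested members, 4 of them positive, against 4491 of 8894 over all tested genes. Its summed level was higher with Flt3 on 1 of 5 plates. The list held B2m, the class I light chain, at -0.08 (-0.18 to 0.02) and Psmb10, an immunoproteasome subunit, at -0.40 ± 0.15. Interferon response genes had a median of 0.11 over 32 members, or -0.17 with depth as a covariate, with Irf7 higher on 5 of 5 plates by 1.35 ± 0.58. Immediate early genes, which respond to handling, had a median of -0.08 over 17 members. The 8 tested mitochondrial genes had a median of -0.16, and 1 of them was positive, against 4491 of 8894 over all tested genes. Their summed level was higher with Flt3 on 1 of 5 plates.

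Without matching, the test gave calls. Over all 212 and 242 cells, 0 of 9662 genes were higher (0%) and 22 (0.228%) lower with Flt3, at adjusted p from 0.030 to 0.048 in edgeR's quasi-likelihood test. Of the 22, 16 encode cytosolic ribosomal proteins, such as Rpl32 at -0.31 ± 0.05 and Rps27 at -0.32 ± 0.05. These and the other called genes are named after their values were seen. The others were Hacd4 at -0.51 ± 0.10, Ifitm1 at -0.34 ± 0.06, S100a16 at -2.72 ± 0.57, Tmsb4x, encoding thymosin beta 4, at -0.30 ± 0.06, and the predicted genes Gm42418 and Gm10076.

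Over all 81 ribosomal protein genes the median was -0.22 without matching and -0.06 in matched cells, where 76 of 81 were still below 0. It was -0.01 with the narrower matching limit and -0.02 with depth as a covariate. With RLE size factors in place of TMM and no matching, the ribosomal median was -0.23 and 0 genes were called. The sides differed 1.18- to 1.47-fold in depth in this comparison. Hacd4 was nearly as low in matched cells as in all cells (-0.45 against -0.51), while Ifitm1 came down from -0.34 to -0.20.

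A stricter border gave no call either. With at least 2 Flt3 UMIs (130 pairs) and with at least 5 (91 pairs, chosen after seeing the data) against none, 0 genes passed in edgeR's quasi-likelihood test. Some differences were larger with at least 5 UMIs than with at least 1. Cd52 differed by 1.07 ± 0.31, Cd37 by 0.98 ± 0.35, Gem by 1.22 ± 0.33 and Birc5 by 0.80 ± 0.20. Mllt3 differed by -0.74 ± 0.29 and Mecom by -0.56 ± 0.26. Others were not: Cd93 differed by 0.61 ± 0.35, Chek1 by 1.35 ± 0.66 and Hacd4 by -0.44 ± 0.14. Procr differed by -0.21 ± 0.27 and Kit by 0.01 ± 0.38.

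Summed markers of other cell types overlapped between the sides. The markers named below at 0 or in few cells were picked after their values were seen, and most members of their lists were detected. At least 1 UMI was found for 19 of 23 dendritic cell, 13 of 18 B cell and 17 of 18 hepatocyte markers. The same held for 19 of 21 macrophage markers, of which only 19 were among the deposited genes. It also held for 9 of 15 neutrophil, 13 of 20 T and innate lymphocyte and 10 of 13 stromal markers. Of dendritic cell markers, the summed level was 828 to 1076 CPM with Flt3 and 832 to 1111 CPM without. That sum comes from genes stem cells also express, such as Cst3 and Bst2, while Siglech and Klrd1 had no UMI and Clec9a was seen in 2 cells and Xcr1 in 6. B cell markers summed to 124 to 173 CPM with Flt3 and 128 to 210 CPM without, mostly from Cd79b and Ighm, with Cd22 at 0 and Cd79a in 5 cells. Hepatocyte markers summed to 107 to 162 and 63.1 to 157 CPM, and Alb was detected in 8 cells. Erythroblast markers ranged from 75.5 to 2023 CPM and from 35.9 to 2260 CPM. Mast cell markers summed to 0 to 17.7 and 0.467 to 2.73 CPM, and none of 12 could be tested. Endothelial markers, many of which stem cells share, summed to 938 to 1329 and 846 to 1324 CPM. Macrophage markers summed to 667 to 1091 and 701 to 1017 CPM. Neutrophil markers summed to 360 to 564 and 321 to 648 CPM with Ngp at 0. T and innate lymphocyte markers summed to 37.0 to 82.0 and 36.2 to 82.1 CPM with Cd3e at 0, and stromal markers to 18.9 to 56.8 and 16.1 to 40.6 CPM with Col3a1 at 0. Of the 35 tested entries in the other cell type lists 0 passed, and the part of such cells in the results was not tested beyond these values.

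The same split was made in the other tissues with fewer pairs. In bone marrow 74 pairs on 5 plates gave 0 calls among 6328 genes (0%, 158 at an unadjusted p under 0.05), and in AGM 28 pairs on 2 plates of 1 code gave 0 among 9547 (0%, 476). A test of whether the difference itself changed between bone marrow and fetal liver called 0 of 7765 genes (0%, 348 at an unadjusted p under 0.05), in edgeR's quasi-likelihood test. DESeq2 was not run on these 3. Cd34 differed by 0.71 ± 0.35 in bone marrow and 0.25 ± 0.19 in AGM beside 0.16 ± 0.16 in fetal liver. Mllt3 differed by -0.71 ± 0.56 and 0.51 ± 0.54, and Ifitm1 by -0.04 ± 0.08 and 0.32 ± 0.16, in that order. The G2 and M median was -0.27 in bone marrow and 0.24 in AGM.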

How the data were processed

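Single cells labelled HSC from AGM (2 plates), fetal liver (5) and bone marrow (5) were used. The authors deposited raw UMI counts per gene symbol and well. UMI-tools, featureCounts, SAMtools and mm10 were used per the submitters' processing notes (versions, annotation and strand: not given in the sources used here). Of 22307 symbols 98.1% matched gene names, positions came from the GENCODE annotation of GRCm38, and no column of another sample was present.

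Wells with at least 1000 genes, 3000 UMIs and under 20% mitochondrial UMIs were kept. No doublet caller was run, since cells were sorted singly. The members and gene lists were chosen with earlier results of these data known, so no list is independent evidence. Within a plate, cells with and without Flt3 were matched 1 to 1 on log2 total UMIs (Flt3 left out, gap up to 0.5) and summed per plate and side. edgeR 4.0.16 (R 4.3.3) tested the sums by the quasi-likelihood test with TMM, filterByExpr, plate as a block and Benjamini-Hochberg adjustment over all tested genes, with 4 residual and 12.2 prior degrees of freedom. The block comes from the design: both sides of a plate share it. Standard errors are the log2 change divided by the square root of F, and intervals are 95% and unadjusted. CPM use TMM-scaled totals. Before scaling, each sum held 1178500 to 3931622 UMIs. The fit was tested on simulated data.

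Genes named by rule were up to 6 genes of smallest p in each direction with at least 20 CPM on the higher side and 1 direction on all plates, up to 3 of smallest p per state or pathway list, and 26 fixed genes, not all of which are reported here. The 12 largest called changes were to lead, but none was called. Other names (list members without p, ribosomal genes, markers at or near 0) were chosen after their values were seen. Alternatives were other depth handling, thresholds, scaling, filters, DESeq2 1.42.0, pairing and plates left out. Exact sign-flip tests compared depth over plates.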

Additional observations from a re-analysis of the deposited data

Results flagged for a closer look

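Among 103 sets of 5 plate values (log2 ratios of cells with to cells without Flt3, for named genes, lists and cell measures), 4 had 1 plate far from the others. Chance alone gives about 1 in 20. Gem had a log2 ratio of 2.29 on plate 1, where the other plates lay between 0.43 and 0.87, so its direction held on every plate. Slamf1 had a ratio of 4.64 on plate 3, where cells without Flt3 had no UMI of it, against -1.33 to -0.33 elsewhere. Ifitm3 had -0.55 on plate 3 against -0.13 to 0.03 on the others. The summed B cell markers had a ratio of 0.38 on plate 4 and -0.42 to -0.28 on the others.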

How the results depend on the processing

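Of 24 alternatives 20 gave 0 genes higher and 0 lower, among them the fit with no replicate block (0 and 0), so the pairing by plate changed no call. With no filter on low counts, edgeR called 4 higher (Ccnb2, Cenpa, Gem and Ube2c) and 2 lower (Nexn and S100a16). Without matching it called 22 lower, DESeq2 called 1 lower (Nexn), and plates of 1 origin code summed gave 2 lower (Nexn and S100a16). Nexn had 2 UMIs with Flt3 and 169 without, 50.3% of these in 1 cell. The share of cells with Flt3 was 24.1% after thinning and 32.2% with at least 2 UMIs. Of 70 tested named genes 37 kept their sign under every alternative that gave a value, among them Hacd4 (-0.64 to -0.05), Ifitm1 (-0.35 to -0.09), Mllt3 (-1.06 to -0.04), Cd93 (0.13 to 0.96) and Cd52 (0.05 to 1.07). Ccnb1 (-0.22 to 1.21) and Ube2c (-0.41 to 1.25) did not. The causes were not tested. The planned exclusion of cells with 3 markers of another type marked 413 of 454 cells and left 1 plate, so it was not run. With 6 such markers (106 cells, chosen after seeing the data) 0 genes passed. Depth limits detection: a cell listed without Flt3 may hold it, and sparse genes such as Slamf1 and Ighm have intervals wider than 2-fold.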
